A study of Mus musculus with 6 samples.

Results

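Polyamine metabolism was followed through 10 genes, Odc1, Azin1, Oaz1, Oaz2, Amd1, Srm, Sms, Sat1, Smox and Paox, which were taken by their symbols from the 31053 genes listed in the files. All 10 had UMIs, the counts of unique molecular identifiers that stand for captured RNA molecules. The genes had been picked with differences between the groups in view, so that their differences between oxygen-induced retinopathy (OIR) and control are given as a description and without a test. Dissociated retinas of mice at P17 (postnatal day 17) were profiled cell by cell in 3 OIR and 3 control (Ctrl) samples. OIR pups were kept in 75% oxygen from P7 to P12 and in normal air until P17, whereas control pups stayed in normal air, and each sample pooled the retinas of 2 mice. The labels name no transgene, deletion or drug for these samples, and their strain is not given in the sources used here. The labels call the material retinal endothelial cells of adult mice, but of the 38569 cells kept 24820 were rod-like and 194 had endothelial markers, and the age given is P17.

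Polyamines (putrescine, spermidine and spermine) are small cations that bind RNA and DNA, are needed for protein synthesis and cell growth, and block inward rectifier potassium channels, among them those of Müller glia. Ornithine decarboxylase, the product of Odc1, makes putrescine and is the usual limiting step of synthesis, and antizymes bind it and send it to the proteasome, unless an antizyme inhibitor holds them. Breakdown starts with spermidine/spermine acetyltransferase, the product of Sat1, or with spermine oxidase, the product of Smox, and the oxidases release hydrogen peroxide and reactive aldehydes, for which the pathway is known in models of retinal ischemia.

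The antizyme mRNAs carry the switch by which polyamines limit their own synthesis, and their sequences show why Oaz1 and Oaz2 counts alone do not give antizyme protein. Their reading frame is broken by a stop codon, which ribosomes pass by shifting forward by 1 base when polyamines are abundant. The GENCODE M21 transcript models (GRCm38) hold this site once in each gene, and the stop codon is shown in capitals within 60 bases of each transcript.
Oaz1: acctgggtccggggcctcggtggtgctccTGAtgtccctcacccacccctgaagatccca
Oaz2: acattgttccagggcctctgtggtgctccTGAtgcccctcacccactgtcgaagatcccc
In both genes, other models of the annotation (3 of Oaz1 and 2 of Oaz2) hold the same stretch with the first base of that codon left out, which is how the annotation writes the shifted frame. The counts of Oaz1 and Oaz2 cannot tell shifted from stopped translation.

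The promoter of Odc1 is shown because Odc1 had the largest fitted difference between OIR and control among the members in Mueller-like cells. In the RefSeq promoter windows (GRCm38.p6, 250 bases before to 50 after a start), Odc1 held the letters GCGTG, a core letter sequence of hypoxia response elements, 3 times counting both strands, and all 3 lay in the 100 bases at chr12:17544683-17544782 on the plus strand, in capitals here.
Odc1 promoter: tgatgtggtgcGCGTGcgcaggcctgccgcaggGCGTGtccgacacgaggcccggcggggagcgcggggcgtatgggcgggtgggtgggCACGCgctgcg
GCGTG is common: 32.4% of the 32851 windows held it at least once and 3.91% at least 3 times. The window of Oaz1, which lay lower in OIR samples in several cell types, and 1 of the windows of Sms also held it 3 times, and those of Sat1, Smox and Oaz2 held it 0 times. ACGTG, the other form of the core, was in 19.6% of windows and CACGTG, the E-box that contains it and that Myc proteins bind, in 7.15%, and neither was in the Odc1 window. Sequence beyond the 50 bases after the start, such as introns, was not searched for any of these letters. The table matched 8 of the 10 members with 10 windows.

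After filtering, samples held 5371 to 7470 cells with a median of 1449.5 to 4850 UMIs per cell, and 15788524 to 42606878 UMIs were deposited per sample. Clusters were named from marker genes as "-like" types, and UMIs were summed per sample and type and are given as CPM, a gene's share of all UMIs of that sum scaled to the same total in every sum. Both replicate 1 samples stood apart, with 2789 and 2206 rod-like cells against 3888 to 6018 in the other samples, and only 2, 2, 4 and 16 VEC-like (vascular endothelial) cells came from OIR 2, OIR 3, Ctrl 2 and Ctrl 3. Xist, the RNA of the inactive X, had 34196 and 31454 UMIs in Ctrl 2 and Ctrl 3 and 7 to 12 in each of the other samples, so that sex was unevenly spread over the groups. Sat1 and Sms lie on the X chromosome.

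Which retinal cells carried the pathway was asked within samples, by comparing each type with the rod-like cells of the same 6 samples. This does not use the OIR contrast. Sat1 and Smox were high in Mueller-like cells, the radial support cells of the retina, in microglia-like cells, the resident immune cells, and in the few VEC-like cells. Mueller-like cells, with 4414 cells against 244 microglia-like and 194 VEC-like, held 79.3% of all Sat1 and 85.0% of all Smox UMIs of the 9 tested types. Over the pairs of member and type, 27 of 76 were called higher and 24 lower than in rods (edgeR's quasi-likelihood test; a call needed a log2 fold change beyond 0.25 either way and a Benjamini-Hochberg adjusted p below 0.05). The pairs called higher include Smox in Mueller-like and microglia-like cells, which passed the count filter only through the sums of those types. Clusters were built from the same cells, and Sat1 and Smox were among the genes used to build them, so that these p-values describe the types as clustered. With Leiden clustering, without integration and without any polyamine gene, 28 pairs were higher and 24 lower.

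**Figure D1:**
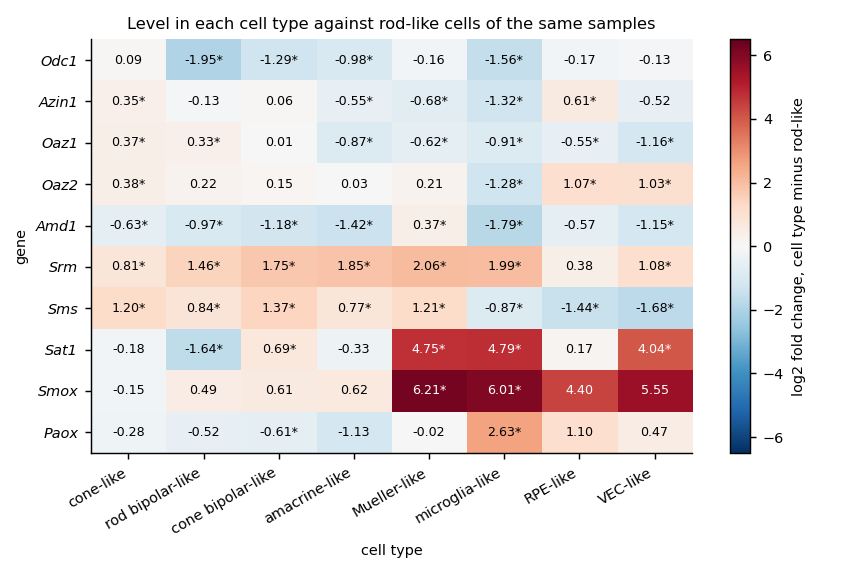
Log2 fold change of each gene (rows) in each cell type (columns) against rod-like cells, fitted over the same 6 samples with the sample as a block. Red is higher and blue lower than in rods, and a star marks pairs called by edgeR's quasi-likelihood test. Smox is at 6.21 in Mueller-like and 6.01 in microglia-like cells and Sat1 at 4.75 and 4.79. Smox in RPE-like, VEC-like, amacrine-like and cone-like cells did not pass the count filter, so that its values there carry no test. In Mueller-like and microglia-like cells Smox passed it only through the sums of those types, so that its stars there add no support.

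In Mueller-like cells 5 of 10 members were higher and 2 lower than in rods, where 38.9% and 40.4% of all genes were called in these directions. In microglia-like cells 4 were higher and 6 lower (28.9% and 41.8% of genes). Most genes differ between such types, so that the counts say little by themselves. In cone-like cells 5 were higher and 1 lower of 9 (28.7% and 31.1%). In cone bipolar-like cells 3 were higher and 3 lower of 10 (35.1% and 36%), and in rod bipolar-like cells also 3 and 3 of 10 (33.5% and 36.5%). In amacrine-like cells, inhibitory interneurons, 2 were higher and 4 lower of 9 (26.3% and 28.3%). In RPE-like (retinal pigment epithelium) cells 2 were higher and 2 lower of 9 (16% and 21.6%), and in VEC-like cells 3 and 3 of 9 (16.5% and 31.5%).

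Odc1, at chr12:17544794-17551505, had its means over the tested types between 26.4 ± 11.5 CPM (SD, n = 6 samples) in rod bipolar-like cells and 101 ± 23.3 CPM in cone-like cells, beside a VEC-like mean of 221 ± 333 CPM that rested on few cells. It was lower than in rods in rod bipolar-like cells by a log2 fold change of -1.95 (SE 0.14), adjusted p = 6.60e-08, and in microglia-like, cone bipolar-like and amacrine-like cells by -1.56, -1.29 and -0.98. In no other type was it called. Astrocyte-like cells, which were too few for a test, had a higher mean of 263 ± 91.1 CPM. No neighbours in the order of Odc1 levels differed in the same direction in all 6 samples, so that the order within the photoreceptors, Mueller-like and RPE-like cells is not resolved over all samples. In every control sample rod-like and cone-like cells were above Mueller-like cells. Ctrl 1, 2 and 3 had 111, 78.8 and 65.1 CPM in rod-like and 59.9, 57.3 and 47.95 CPM in Mueller-like cells. Among OIR samples, rod-like cells were above Mueller-like cells in OIR 1 alone and cone-like cells in OIR 3 alone.

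The antizyme and inhibitor genes were spread over all types. Oaz1 (chr10:80826656-80829290) ranged from 900.2 ± 42.4 CPM in microglia-like to 2391 ± 363 CPM in rod bipolar-like cells, and it was called lower than in rods in 5 types, at most by -1.16 (SE 0.44) in VEC-like cells. Oaz2 (chr9:65668001-65690300) was higher in RPE-like cells by 1.07 (SE 0.26), in the few VEC-like cells by 1.03 (SE 0.32) and in cone-like cells by 0.38 (SE 0.07). It was lower in microglia-like cells by -1.28 (SE 0.23). Azin1 (chr15:38487427-38519266), which frees ornithine decarboxylase from antizyme, was lower in microglia-like cells by -1.32 (SE 0.19), in Mueller-like cells by -0.68 (SE 0.10) and in amacrine-like cells by -0.55 (SE 0.16). It was higher in RPE-like cells by 0.61 (SE 0.23) and in cone-like cells by 0.35 (SE 0.09). Microglia-like cells were thus below rods in Odc1, Oaz1, Oaz2 and Azin1 together, and in Amd1 and Sms. The other members, Srm, Sat1, Smox and Paox, were above rods there. Of all genes, 41.8% were called lower than in rods in this type, so that the lower members are no particular result.

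The later steps of synthesis had different patterns. Srm, spermidine synthase (chr4:148591503-148594993), was lowest in rods at 10.1 ± 1.18 CPM and called higher in 7 of 8 types, with 2.06 (SE 0.11) in Mueller-like cells, adjusted p = 2.75e-09. Sms, spermine synthase (chrX:157443855-157492287), was highest in cone bipolar-like cells at 244 ± 26.6 CPM, above Mueller-like cells in 6 of 6 samples. It was higher than in rods in 5 neural and glial types and lower in VEC-like, RPE-like and microglia-like cells, by -1.68, -1.44 and -0.87. Amd1 (chr10:40287458-40302186), the decarboxylase that supplies the aminopropyl groups, was higher than in rods in Mueller-like cells by 0.37 (SE 0.10) and lower in 6 types. Its reads can be shared with Amd2, a near-identical copy for which 668 UMIs were listed in the summed types against 10067 for Amd1.

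Of the breakdown genes, Sat1 (chrX:155213132-155216449) had 892 ± 233 CPM in Mueller-like, 839.5 ± 171 CPM in microglia-like, 1359 ± 1907 CPM in VEC-like and 32.5 ± 5.51 CPM in rod-like cells. The log2 fold change against rods was 4.75 (SE 0.13) in Mueller-like cells, adjusted p = 5.87e-12, and 4.79 (SE 0.15) in microglia-like cells, adjusted p = 3.68e-21. In VEC-like cells it was 4.04 (SE 0.41), with samples from 139 to 5071 CPM and few cells, and was the least certain of these values. The order among these 3 types is not resolved over all samples, since Mueller-like cells were above microglia-like cells in 2 of 6 samples, OIR 1 and OIR 3. In Ctrl 1, 2 and 3 the order was the same. Microglia-like cells had 760.3, 832 and 807 CPM, Mueller-like cells 587, 705 and 775 CPM. The few VEC-like cells had 357, 139 and 275 CPM. In OIR 1 and OIR 2 VEC-like cells were the highest of the 3 types, and in OIR 3 the lowest. OIR 2 and OIR 3 held 2 VEC-like cells each. Each of the 3 means stood above that of cone bipolar-like cells, the next type, which microglia-like cells exceeded in 6 of 6 samples. Rod bipolar-like cells had the lowest Sat1, 10.5 ± 5.34 CPM, below rods by -1.64 (SE 0.18).

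Smox (chr2:131491496-131525922) was close to the limit of detection in neurons, with 1.16 to 3.11 CPM in rod-like cells (77 UMIs in all), against 76.2 to 177 CPM in Mueller-like and 62.95 to 113 CPM in microglia-like cells. VEC-like cells had 84.2 ± 47.7 CPM, with 0 UMIs in OIR 3, and were under the count filter for Smox. The log2 fold change of Smox against rods was 6.21 (SE 0.12) in Mueller-like and 6.01 (SE 0.28) in microglia-like cells. In these fits Smox passed the count filter through the Mueller-like or microglia-like sums, where it is high, and not through the rod-like sums. These values are therefore a description, and no p-value is given. Paox (chr7:140115799-140137224), the oxidase that acts on acetylated polyamines, was sparse everywhere, with 804 UMIs over the tested types, and was highest in microglia-like cells, 34.9 ± 19.9 CPM against 5.80 ± 1.16 CPM in rods (2.63 (SE 0.32), adjusted p = 3.57e-08).

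**Figure D2:**
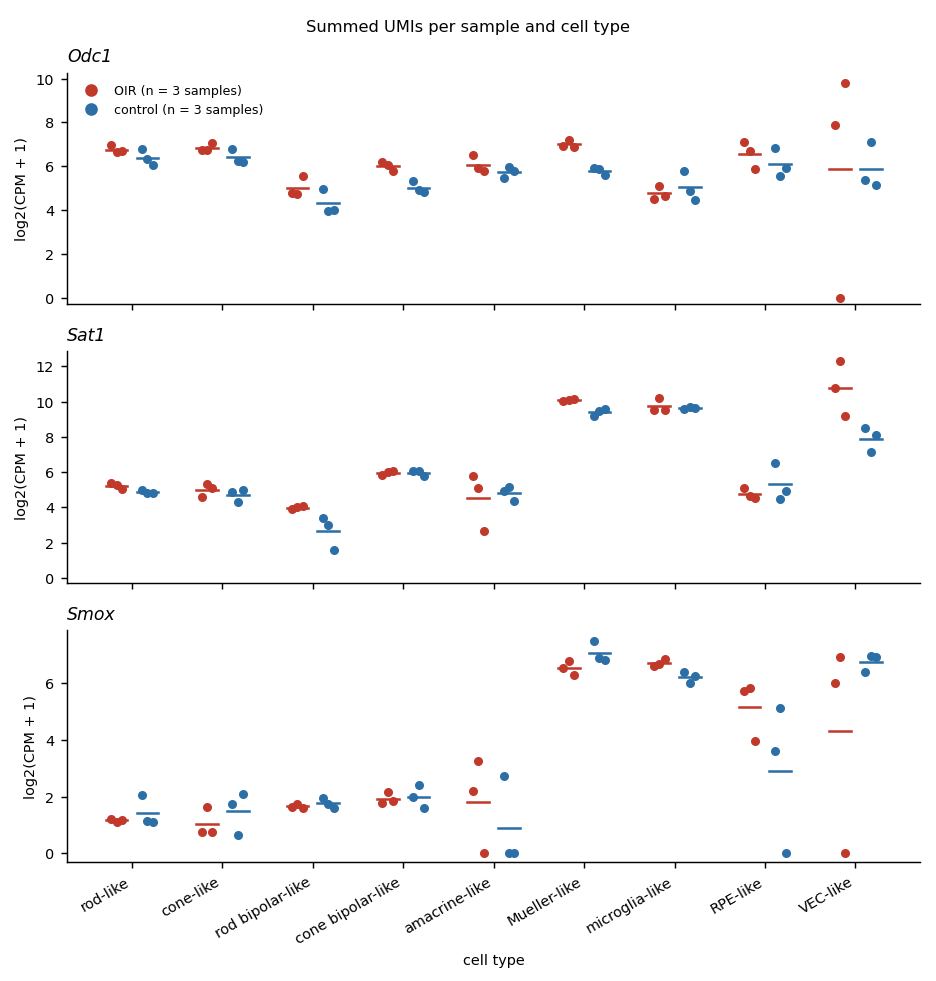
Odc1, Sat1 and Smox as log2(CPM + 1) of summed UMIs (vertical axis) in 9 cell types (horizontal axis); each point is a sample, red OIR and blue control, and bars are means of 3 samples. Sat1 and Smox stand high in Mueller-like and microglia-like cells, and Odc1 separates OIR from control in Mueller-like and cone bipolar-like cells.

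Between OIR and control samples, Odc1 showed the clearest separation, in Mueller-like cells. There it had 122, 144 and 116 CPM in OIR 1, 2 and 3 and 59.9, 57.3 and 47.95 CPM in Ctrl 1, 2 and 3. Every OIR sample was above every control sample, with a fitted log2 fold change of 1.13 (SE 0.15). In cone bipolar-like cells, the interneurons that relay cone signals, Odc1 had 71.5, 65.3 and 53.7 CPM in OIR and 38.6, 29.2 and 27.2 CPM in control samples, a log2 fold change of 0.89 (SE 0.19). Again all OIR samples were above all control samples. In rod-like cells it had 124, 97.99 and 103 CPM against 111, 78.8 and 65.1 CPM, and here the groups overlapped, as they did in cone-like cells with 106, 106 and 135 CPM against 109.7, 75.4 and 72.3 CPM. They also overlapped in rod bipolar-like cells, 26.2, 25.9 and 46.2 CPM against 30.3, 14.8 and 15.2 CPM, 0.45 (SE 0.30). Groups overlapped as well in amacrine-like, 0.53 (SE 0.38), and RPE-like cells, 0.39 (SE 0.54). In microglia-like cells, under the count filter, they overlapped and the fitted value lay the other way, -0.66 (SE 0.46). In cone bipolar-like cells the 8 rod markers summed to 3873 to 5877 CPM in OIR and 5030 to 8220 CPM in control samples and the 8 Mueller markers to 329.9 to 424 CPM and 274 to 538 CPM, both overlapping between groups. The 9 endothelial markers summed to 33.7 to 59.4 CPM in OIR and 63.4 to 85.3 CPM in control samples and did not overlap, and their part in the Odc1 values was not tested.

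By the limits used for calls, 2 of 59 pairs of member and type that passed the count filter were past them, Odc1 in Mueller-like cells (where 1.09% of genes were called higher in OIR and 0.651% lower) and in cone bipolar-like cells (0.487% and 0.351%). Since the genes were picked on this contrast, the count is no evidence about the pathway. The Odc1 difference in Mueller-like cells was no longer past the limits without Ctrl 2 (1.17) or without Ctrl 3 (1.05), nor in the Mueller-like cluster of lower UMI counts alone (0.50), and that in cone bipolar-like cells without any one of OIR 1, 2 and 3 or Ctrl 2 and 3 (0.73 to 1.01) or with a term for whether a sample had Xist (0.66), while the fold changes stayed above 0 in all of these. Both samples with Xist are controls, so that a fit with the Xist term compares the OIR samples with Ctrl 1 alone, and sex and the rest of what sets Ctrl 2 and Ctrl 3 apart from Ctrl 1 cannot be told apart.

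Sat1 was also higher in OIR Mueller-like cells. It had 1048, 1088 and 1152 CPM in OIR and 587, 705 and 775 CPM in control samples. The groups did not overlap, and the log2 fold change was 0.61 (SE 0.16). In rod-like cells Sat1 had 40.6, 37.3 and 32.5 CPM against 30.4, 26.8 and 27.5 CPM, a smaller gap of 0.23 (SE 0.14) that also left no overlap and was 0.11 without OIR 1 and 0.33 without OIR 3. In rod bipolar-like cells it had 13.8, 14.99 and 15.6 CPM against 9.43, 7.0 and 2.02 CPM, 115 UMIs in OIR and 63 in control. Microglia-like cells, whose control values of Sat1 were above those of Mueller-like cells, showed overlapping groups, 725, 1177 and 736 CPM against 760.3, 832 and 807 CPM.

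Smox, the spermine oxidase gene, lay the other way in Mueller-like cells. It had 90.8, 107 and 76.2 CPM in OIR and 177, 116 and 110.1 CPM in control samples, a log2 fold change of -0.62 (SE 0.20). The OIR samples were all lower, and Ctrl 1 stood above the other controls. In microglia-like cells Smox had 96.1, 99.96 and 113 CPM in OIR and 83.3, 62.95 and 73.8 CPM in control samples, 0.43 (SE 0.28), with every OIR sample higher. The number of microglia-like cells was 17 to 81 per sample, and the 8 Mueller markers summed to more in OIR than in control microglia-like cells, 41933 to 51585 CPM against 16936 to 20704 CPM, and nearly all of it was Apoe, which microglia express too. Without Apoe the sums were 497 to 927 CPM in OIR and 769 to 918 CPM in control samples and overlapped.

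The antizyme gene Oaz1 was lower in several OIR types. In Mueller-like cells it had 1054, 998 and 1114 CPM in OIR and 1219, 1518 and 1327 CPM in control samples, -0.42 (SE 0.16), and in cone bipolar-like cells 2110.1, 1887 and 1936 CPM against 2359.8, 2265 and 2547 CPM, -0.32 (SE 0.17). In both types all OIR samples were below all control samples. The same held in rod bipolar-like cells, 2219.8, 2088 and 2159.8 CPM against 2295, 2513 and 3070.4 CPM, and in amacrine-like cells, 1064, 1158 and 964 CPM against 1294, 1182 and 1255 CPM. In rod-like cells the groups overlapped, 2101, 1505 and 1539.9 CPM against 2185, 1866 and 1841 CPM. Fitted values were -0.32 (SE 0.17) in rod bipolar-like, -0.18 (SE 0.24) in amacrine-like and -0.35 (SE 0.18) in rod-like cells. Antizyme genes thus did not follow Odc1 in Mueller-like and cone bipolar-like cells, where Oaz2 had overlapping groups, 72.8, 65.4 and 63.04 CPM against 60.7, 54.6 and 63.8 CPM in Mueller-like cells.

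Of the genes of the later synthesis steps, Srm alone was lower without overlap in several types. Amd1 overlapped between groups in all 9 types, with 122, 147 and 81.9 CPM against 121, 97.4 and 76.8 CPM in Mueller-like cells. Srm was lower in OIR without overlap in 5 types, of which cone-like cells had 14.8, 14.1 and 14.7 CPM against 18.1, 22.2 and 19.3 CPM, -0.49 (SE 0.23), and rod bipolar-like cells 23.1, 28.2 and 28.5 CPM against 29.2, 35.0 and 30.4 CPM, -0.29 (SE 0.19). In the other 3, RPE-like, amacrine-like and microglia-like cells, Srm did not pass the count filter, with 1, 18 and 35 UMIs in OIR and 7, 86 and 50 in control samples and fitted values of -2.42 (SE 1.33), -0.79 (SE 0.45) and -0.82 (SE 0.41). Sms was lower without overlap in microglia-like cells alone, -0.83 (SE 0.40), where it did not pass the count filter. With overlapping groups, its fitted value was -0.29 (SE 0.12) in rod-like and -0.20 (SE 0.17) in cone-like cells. It was 0.08 (SE 0.14) in cone bipolar-like, 0.12 (SE 0.15) in rod bipolar-like and 0.25 (SE 0.28) in amacrine-like cells. Sms also overlapped in Mueller-like cells, with 187, 166 and 214 CPM against 122, 210.3 and 227 CPM. Ctrl 1 stood below the other controls, and the log2 fold change of -0.04 (SE 0.23) had no stable sign: it kept its sign in 10 of 16 alternatives and was -0.28 without Ctrl 1, 0.12 without Ctrl 3 and 0.59 with the Xist term, which compares with Ctrl 1 alone. For Sat1, the other X-linked member, the value in Mueller-like cells was 0.85 with that term and 0.49 without Ctrl 1. Without Ctrl 1 the controls left are the samples with Xist, so that sex and group cannot be told apart there.

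Paox was higher in OIR without overlap in Mueller-like cells, 6.37, 9.05 and 6.73 CPM against 3.96, 3.95 and 4.90 CPM from 112 and 45 UMIs, in cone bipolar-like cells, 4.94, 8.93 and 6.64 CPM against 2.54, 2.57 and 3.02 CPM from 59 and 30 UMIs, and in rod-like cells, 6.20, 7.06 and 6.86 CPM against 5.84, 4.77 and 4.11 CPM from 210 and 113 UMIs. Its log2 fold changes there were 0.74 (SE 0.29), 1.20 (SE 0.38) and 0.31 (SE 0.22). Azin1 overlapped between groups in 8 of 9 types, and in rod-like cells its 110.3, 116 and 108 CPM against 104, 98.3 and 98.96 CPM did not overlap although the fitted log2 fold change was -0.004 (SE 0.10), since the fit scales libraries by TMM and CPM does not.

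**Figure D3:**
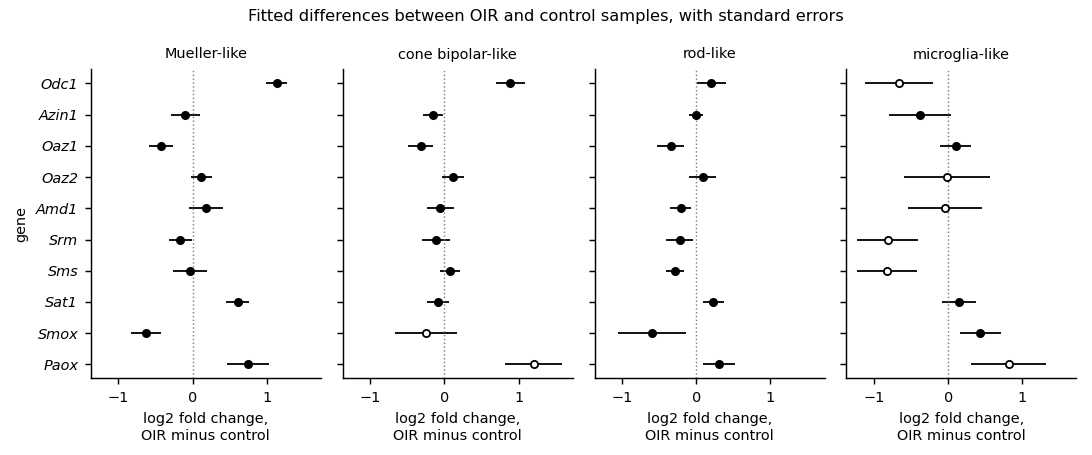
Fitted log2 fold change between 3 OIR and 3 control samples (horizontal axis, values above 0 are higher in OIR) for each gene (vertical axis) in 4 cell types; bars are 1 standard error, and open circles mark genes that did not pass the count filter. Odc1 lies at 1.13 in Mueller-like and 0.89 in cone bipolar-like cells, and Smox on opposite sides of 0 in Mueller-like and microglia-like cells.

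Groups without overlap are frequent in these data, and the members' counts have to be set beside those of all genes. In Mueller-like cells 3 members were higher (Odc1, Sat1 and Paox) and 2 lower (Oaz1 and Smox) without overlap, where 13.9% and 6.07% of genes were. In rod-like cells Sat1, Azin1 and Paox were higher and 0 members lower, beside 23.3% and 4.78% of genes. Rods had the widest background, so that their count says least. In cone bipolar-like cells Odc1 and Paox were higher and Oaz1 lower (11.1% and 6.62%), in rod bipolar-like cells Sat1 higher and Oaz1 and Srm lower (11.5% and 7.73%), and in cone-like cells 0 members higher and Srm alone lower (11.3% and 5.71%). In microglia-like cells Smox was higher and Srm and Sms lower (6.6% and 8.49%). In amacrine-like cells 0 members were higher and Oaz1 and Srm lower (4.53% and 7.27%), and in RPE-like cells, where the 8 RPE markers themselves summed to 59212 to 88095 CPM in OIR and 34122 to 56475 CPM in control samples, Oaz2 higher and Srm lower (7.2% and 2.83%). The shares cover genes that passed the count filter, whereas the members were counted with or without it. Those under it were Paox in cone bipolar-like cells, Sms in microglia-like cells, and Srm in amacrine-like, RPE-like and microglia-like cells. Because the contrast chose the members, nothing is read from these counts.

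Mueller-like cells fell into a pair of clusters, and the members differed between them. One cluster held 2205 cells with a median of 7503 to 11706 UMIs per sample and the other 2209 cells with 1655 to 2565 UMIs. The 8 rod markers summed to 1857 to 6686 CPM in the cluster of higher UMI counts and to 24983 to 62980 CPM in the cluster of lower UMI counts, beside 52725 to 66593 CPM in rod-like cells, so that the second cluster carried much rod RNA.

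In the cluster of higher UMI counts Odc1 had 117, 140.2 and 111 CPM in OIR and 50.0, 40.3 and 43.6 CPM in control samples, a log2 fold change of 1.37 (SE 0.16). In the cluster of lower UMI counts it had 145, 152 and 126 CPM against 111, 95.8 and 65.3 CPM, 0.50 (SE 0.22). The groups did not overlap in either, and the gap was narrower where rod RNA was more. For Sat1 the gap was wider there: 722, 742 and 772 CPM against 362, 222 and 297 CPM, 1.26 (SE 0.20), compared with 1108, 1257 and 1355 CPM against 631, 918 and 895 CPM, 0.53 (SE 0.19), in the cluster of higher UMI counts. Control samples carried more rod RNA than OIR samples in the cluster of lower UMI counts, 38797 to 62980 CPM against 24983 to 34604 CPM of rod markers, and rods had little Sat1. The part of rod RNA in these differences was not tested.

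Smox in the cluster of higher UMI counts had 94.6, 126 and 86.7 CPM in OIR and 186, 152 and 126 CPM in control samples, and the groups overlapped by OIR 2 and Ctrl 3 alone. In the cluster of lower UMI counts Ctrl 1 stood apart, with 133, 33.4 and 46.3 CPM in Ctrl 1, 2 and 3 against 69.9, 68.5 and 56.6 CPM in OIR. The lower Smox of OIR Mueller-like cells therefore held without overlap for the sum of the clusters and for neither cluster by itself. The fitted log2 fold change of Smox was -0.68 (SE 0.18) in the cluster of higher UMI counts. In the cluster of lower UMI counts it was -0.28 (SE 0.39).

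**Figure D4:**
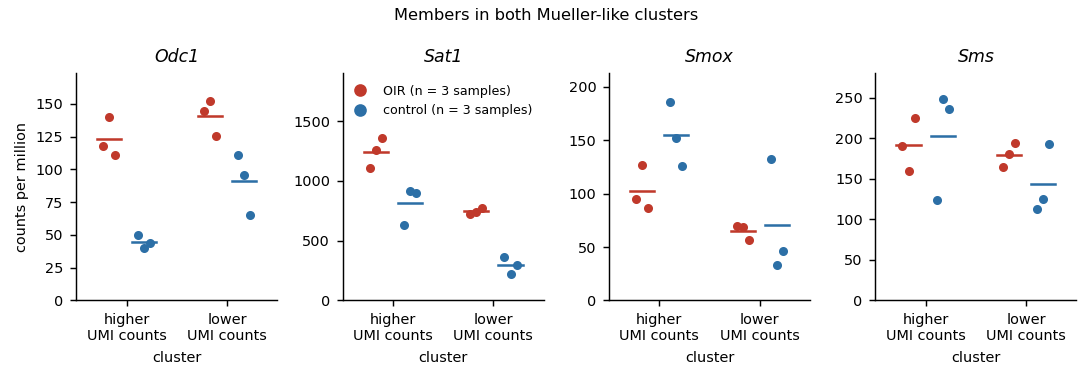
Levels in CPM of Odc1, Sat1, Smox and Sms (vertical axes, from 0) in the Mueller-like clusters of higher and lower UMI counts (horizontal axes); points are samples, red OIR and blue control, and bars are means of 3 samples. Odc1 and Sat1 separate the groups in both clusters, Smox and Sms in neither.

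VEC-like cells, in which the study looks for vessel growth, were too few for most members. Sat1 had 1726, 5071 and 585 CPM in OIR 1, 2 and 3 from 356, 43 and 2 UMIs, and 357, 139 and 275 CPM in Ctrl 1, 2 and 3 from 402, 8 and 16 UMIs. Every OIR value was above every control value, and the log2 fold change was 3.04 (SE 0.72). The exact Poisson interval of OIR 3 ran from 70.8 to 2112 CPM, which takes in all 3 control values, and its 9 endothelial markers summed to 1462 CPM against 8006 to 13267 CPM in the other samples. The 8 rod markers summed to 5542 to 19877 CPM in OIR and 295 to 7268 CPM in control VEC-like cells, and the 8 Mueller markers to 292 to 589.6 CPM and 590.3 to 2054 CPM, and the part of such RNA in the Sat1 values was not tested. Without OIR 3 the log2 fold change was 3.48 and past the limits for calls, and without OIR 2 it was 2.17. Sat1 was the one member without overlap in this type (5.46% of genes were higher and 9.14% lower without overlap), and 2 members, Sat1 and Oaz1, passed the count filter. Odc1 had 233, 0 and 877 CPM against 40.9, 139 and 34.4 CPM, with the OIR values on both sides of all controls. These values came from 51 Odc1 UMIs in OIR and 56 in control samples, and OIR 3 held 2 cells with 3421 UMIs of all genes.

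The wider pathway was covered by 30 further genes for paralogs, hypusination, supply of ornithine and methyl donor, methionine salvage, transport and diamine oxidase, and 23 of them passed the count filter in at least 1 type. These genes were not among the members, and they were tested, but the list too was drawn up with earlier results of these data known. Of 113 pairs of gene and type, 2 were called higher in OIR and 0 lower: Atp13a2 in cone-like cells and Slc3a2 in rod-like cells (edgeR's quasi-likelihood test). In cone-like cells 1 of 18 genes of the list was called, beside 0.819% of all genes called higher and 0.479% lower. In rod-like cells it was 1 of 20, beside 1.58% and 1.04%. With 1 call in each of these types, nothing is read from the counts. The median log2 fold change of the list ranged from -0.08 in VEC-like to 0.26 in RPE-like cells; it was below 0 also in cone bipolar-like (-0.07) and rod bipolar-like cells (-0.03) and above 0 in the other types, among them cone-like (0.20) and rod-like cells (0.11). Over all genes the medians lay between -0.13 in VEC-like and 0.01 in amacrine-like cells.

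Atp13a2, a lysosomal polyamine exporter, had 119.9, 104 and 109 CPM in OIR and 65.96, 60.8 and 54.6 CPM in control cone-like cells. No sample overlapped, and the log2 fold change was 0.79 (SE 0.15), adjusted p = 0.0108 by edgeR. It was no longer called without Ctrl 2 (adjusted p = 0.0558) or with the Xist term, against Ctrl 1 alone (adjusted p = 0.0706). In rod-like cells its values were 55.6, 45.8 and 48.3 CPM and 44.2, 44.5 and 38.6 CPM, 0.08 (SE 0.13), without overlap as well, and whether the difference is specific to cones was not tested.

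Slc3a2, the heavy chain of amino acid transporters that has also been tied to polyamine export, had 291, 335 and 333 CPM in OIR and 205, 125 and 159.9 CPM in control rod-like cells. All OIR samples were higher, with a log2 fold change of 0.81 (SE 0.17), adjusted p = 0.043 by edgeR and 0.00374 with the replicate number as a block. With that block 5 pairs were called higher and 1 lower, adding in rod-like cells Azin2 and Dohh, higher by 0.84 and 0.46, and Arg2, lower by -0.55, and in cone-like cells Slc3a2, higher by 0.62. The block raised the calls over all genes too, from 301 to 1404 of 11489 in rod-like and from 122 to 367 of 9397 in cone-like cells. Samples of equal number correlated at 0.17, 0.05 and 0.07 in cone-like cells, against 0.49, 0.27 and 0.34 in rod-like cells. Whether samples of equal number were paired cannot be told from these values. Without the block the Slc3a2 call was lost when any of OIR 1, OIR 2, OIR 3, Ctrl 2 and Ctrl 3 was left out (adjusted p = 0.0508 to 0.177) and with the Xist term, against Ctrl 1 alone, the highest control (adjusted p = 0.276), and the log2 fold change in these was 0.48 to 0.84. The study uses Slc3a2 as a marker of Müller glia, and the 8 Mueller markers used here summed to 215 to 349 CPM in OIR and 164 to 372 CPM in control rod-like sums, which overlap. Eif5a, the protein that spermidine modifies to hypusine, was called in none of the 9 types, with 265, 209 and 231 CPM against 263, 207 and 199.98 CPM in Mueller-like cells.

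**Figure D5:**
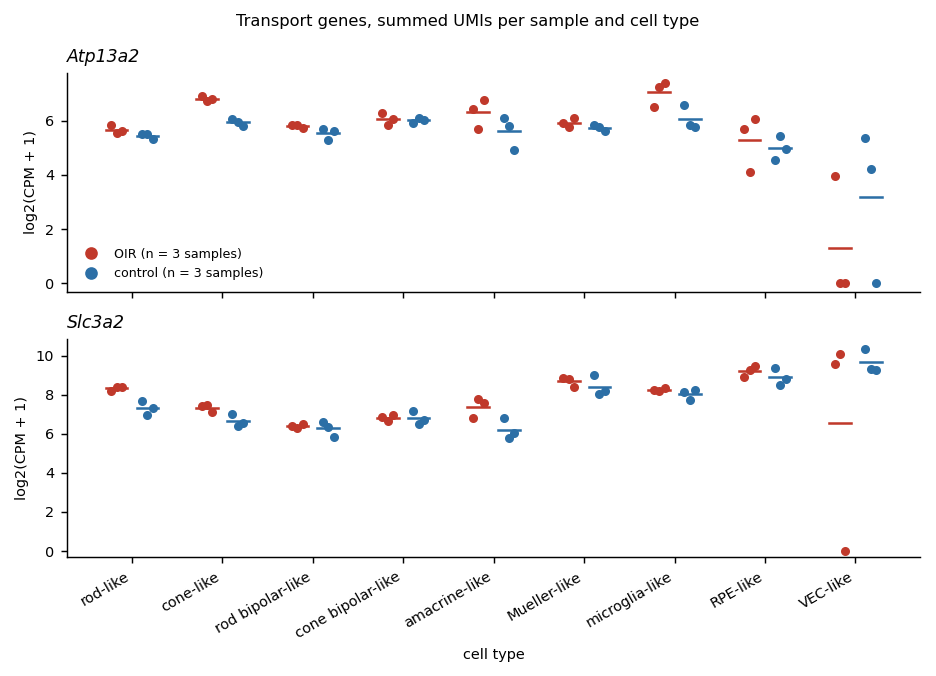
Atp13a2 and Slc3a2 as log2(CPM + 1) of summed UMIs (vertical axis) in 9 cell types (horizontal axis); points are samples, red OIR and blue control, and bars are means of 3 samples. In cone-like cells Atp13a2 lies at 104 to 119.9 CPM in OIR and 54.6 to 65.96 CPM in control samples, and Slc3a2 in rod-like cells at 291 to 335 and 125 to 205 CPM.

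Over the 54 sums of 9 types and 6 samples, the genes whose levels followed Odc1 most closely were Dpysl3, Gnaz and Plpp2, with Spearman correlations of 0.73, 0.68 and 0.67 among 7438 genes with a mean of at least 20 CPM. For Sat1 they were Ier2, Rplp0 and Mapk3, with 0.83, 0.80 and 0.79. The sums of a sample share its library and depth, and sums of a type differ in RNA content, so that these are descriptions of the pattern over types.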

How the data were processed

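The authors deposited filtered counts of UMIs per gene and barcode (10x Genomics 3' kit v3), whole numbers without normalization, and every barcode held at least 500 UMIs. The study's methods name Cell Ranger and a human reference, whereas the submitters' processing notes name mm10, the matrix headers give software version 3.1.0 and the gene identifiers are of mouse. Barcodes are filtered cells, so free RNA in empty droplets could not be measured.

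Of 47631 barcodes, cells with 500 to 5000 detected genes and at most 20% mitochondrial counts were kept, as in the study's methods. Both groups were aligned with the canonical correlation method of Seurat 5.3.0, using 2000 variable genes and 15 principal components, and cells were grouped by the Louvain method at a resolution of 0.5 on 20 neighbours. Marker lists gave the names. A cluster of 723 cells led by Adarb2 and Cntn5 had near-equal rod and cone bipolar scores and was named cone bipolar-like, and a cluster of 16 cells with cone and rod bipolar markers together was left unnamed, both after the data were seen. Unnamed clusters held 743 cells. Libraries shared at most 34 barcodes.

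UMIs were summed per sample and type. VEC-like cells and the 8 types of which every sample held 10 cells or more were tested with edgeR 4.0.16 in R 4.3.3 (TMM, filterByExpr, quasi-likelihood test, no covariate; Benjamini-Hochberg over all genes). The standard error is the size of the log2 fold change over the root of F. Members under the count filter were added to the fit of the others. Types were compared with rod-like cells in 1 fit per type with the sample as a block. The script was tested on simulated data. Exact Poisson intervals (95%) hold counting error alone.

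The members and lists were chosen with earlier results of these data known. Named were all members, the further pathway genes called in at least 1 type, and the 3 genes most like Odc1 and Sat1; Eif5a and the genes called with the block were added after their values were seen. Equal replicate numbers correlated above 0.1 in all 3 pairs in RPE-like (0.12, 0.19 and 0.21), cone bipolar-like (0.35, 0.14 and 0.19) and rod-like cells (0.49, 0.27 and 0.34), over the genes' deviations from group means, and not in the other 6 types, and the labels do not say that a number marks a shared litter or day. Alternatives were DESeq2 1.42.0, no count filter, the replicate block, a term for Xist (present in Ctrl 2 and Ctrl 3 alone, so that Ctrl 1 is the control left), each sample and both replicate 1 samples left out, a mitochondrial limit of 10%, Leiden clustering (scanpy 1.11.5) without integration and without polyamine genes, removal of the highest Scrublet scores at 0.8% per 1000 barcodes, and, against rods, no TMM and no sample block. Each Mueller-like cluster alone was an alternative chosen later, with the data in view. The threshold that Scrublet sets by itself was not used, since it marked 143 cells of OIR 1, 363 of Ctrl 1 and 0 or 1 of the others. Positions and transcripts are from GENCODE M21 (GRCm38) and promoters from RefSeq (GRCm38.p6).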

Additional observations from a re-analysis of the deposited data

Results flagged for a closer look

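Smox lay in opposite directions in Mueller-like and microglia-like cells. Every OIR sample was lower than every control sample in Mueller-like cells (log2 fold change -0.62, SE 0.20) and higher in microglia-like cells (0.43, SE 0.28). The difference between these types was not tested, and both fold changes belong to the contrast on which the members were picked. In Mueller-like cells the nearest values were 107 CPM in OIR 2 and 110.1 CPM in Ctrl 3, and the groups overlapped in each cluster alone. In microglia-like cells Smox had 120 UMIs in OIR and 72 in control samples. With a term for Xist, which leaves Ctrl 1 as the one control compared, the fold changes were -0.996 and 0.22. Without Ctrl 1, which leaves the samples with Xist as the controls, they were -0.38 and 0.66.

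Paox had a few UMIs in a cluster outside the comparisons, the 373 unnamed cells led by Lyz2, Hmox1 and Cd52, which are genes of macrophages and other leukocytes. Its mean was 25.4 CPM in OIR, from 12, 2 and 2 UMIs, against 3, 0 and 0 UMIs in Ctrl 1, 2 and 3. The leading genes of this cluster also held C1qa and C1qb, which are on the microglia marker list. Its cells were left out of the microglia-like sums. Leiden clustering, without integration, named 622 cells microglia-like, against 244 in the main clustering.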

How the results depend on the processing

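Counts are pairs of gene and cell type past the limits, higher and lower in OIR. The Xist term compares the OIR samples with Ctrl 1 alone. Without Ctrl 1, or without both replicate 1 samples, the controls left are Ctrl 2 and Ctrl 3, the samples with Xist. In those fits sex and group cannot be told apart. For the members they were 2 and 0, and 1 and 1 with a term for Xist and 4 and 2 without both replicate 1 samples; with each sample left out they ranged from 0 to 2 higher and 0 to 0 lower. For the further pathway genes they were 2 and 0, and 5 and 1 with the replicate number as a block, 0 higher with the Xist term, 1 lower with DESeq2 and with no count filter, and 7 and 3 without both replicate 1 samples; with each sample left out they ranged from 0 to 5 higher and 0 to 2 lower. Calls over all genes moved as well: in rod-like cells 301 of 11489 genes became 2563 of 11592 without both replicate 1 samples and 33 with the Xist term, and in rod bipolar-like cells 226 of 9328 became 713 of 9246 and 169. The block left the members' counts at 2 and 0. Against rods, 27 higher and 24 lower became 25 to 32 and 21 to 26 over all alternatives, and no called pair changed direction. Sat1 in Mueller-like cells was past the limits with DESeq2 (0.59) and in the cluster of lower UMI counts alone (1.26), Sat1 in VEC-like cells without OIR 3 (3.48), and Smox in Mueller-like cells with the Xist term (-0.996). Of the member pairs past the limits without both replicate 1 samples, Odc1 in Mueller-like and in cone bipolar-like cells were among the higher ones. The others are not named here. The cause of these shifts was not tested. In types with few cells, depth limits what could be seen: in VEC-like cells 2 members had enough UMIs to pass the filter and in RPE-like and microglia-like cells 4 each, against 10 in Mueller-like cells.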

Other observations

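Astrocyte-like and VSMC-like (mural) cells were too few for a test, and their values are given as measured. In the 56 astrocyte-like cells Odc1 had 197, 332 and 367 CPM in OIR 1, 2 and 3 and 148, 202 and 331 CPM in Ctrl 1, 2 and 3, from 122 and 58 UMIs. OIR 3, Ctrl 2 and Ctrl 3 had 3, 2 and 1 of these cells, so that their values rest on few UMIs. In the 86 VSMC-like cells Oaz2 had 417, 183 and 71.3 CPM and 322, 464 and 354 CPM, from 43 and 210 UMIs, a mean of 302 ± 148 CPM beside 138 ± 103 CPM in VEC-like cells. OIR 1, 2 and 3 held 5, 2 and 6 of these cells and Ctrl 1, 2 and 3 held 63, 5 and 5. The leading genes of this cluster also held the collagen genes Col3a1, Col1a1 and Col1a2. Leiden clustering named 1 cell of OIR 3 VSMC-like, so that the value of OIR 3 depends on the clustering.

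In the unnamed cluster led by Lyz2, Hmox1 and Cd52, Sat1 had 594, 535 and 453 CPM in OIR and 494, 475 and 329.96 CPM in control samples, between the levels of microglia-like and cone bipolar-like cells, and the groups overlapped. In the unnamed cluster of 354 cells led by lens crystallin genes it had 28.1, 39.3 and 32.6 CPM in OIR and 62.4, 16.03 and 10.7 CPM in control samples. The OIR values came from 1, 14 and 5 UMIs and each control value from 1 UMI, so that this level is not resolved.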
